A study of Homo sapiens with 12 samples.

Results

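*PLAGL1* and the imprinted growth genes named with it were followed through cerebral organoids (COs) of WT and *c-JUN* KO lines. The list held 10 genes, *PLAGL1*, *IGF2*, *H19*, *CDKN1C*, *DLK1*, *MEG3*, *PEG3*, *PEG10*, *MEST* and *GRB10*, and each was looked up by its gene symbol. Of the 10 genes, 9 had a row among the 10976 genes measured, and *PEG3* was not analysed here.

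COs are aggregates of stem cells that are led to form brain tissue in culture. The WT line was H1, which is a line of human embryonic stem cells, and KO#2 and KO#10 were made from it by CRISPR/Cas9 editing of *c-JUN*. Each KO line was a single clone, so that a feature of a clone and an effect of the edit cannot be told apart within 1 clone. RNA of 3 or 4 pooled COs went into each library, with 2 libraries per line on day 12 and 2 on day 24, or 12 libraries in all (2 WT and 4 KO per day). The methods give 1 culture scheme with no difference between the lines, in which aggregates formed with basic fibroblast growth factor and, at first, a ROCK inhibitor. Neural induction with heparin came next, and then embedding in Matrigel and a differentiation medium that contained insulin. The tissue field of the labels names embryonic stem cells. The neural progenitor markers (6 of 6 with a row, among them *PAX6* and *SOX2*) summed to values from 474 to 1009 in the 12 libraries. *VIM* made up most of this sum on day 24 (316 and 354 in WT, 550 to 748 in KO). *SOX2* was at 97 to 146 on day 12 and at 34 to 73 on day 24. The pluripotent cell markers (6 of 6) summed to values from 24 to 904.

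Imprinted genes are expressed mainly from the copy inherited from 1 parent, and many of them act on growth before birth. *PLAGL1* (also *ZAC1*) encodes a zinc finger transcription factor that is expressed from the paternal copy and that binds GC-rich sequence at other imprinted genes, among them the *IGF2* and *H19* region. *IGF2* is a growth factor and paternally expressed, whereas *H19*, its neighbor, is a maternally expressed long noncoding RNA. *CDKN1C* (p57) arrests the cell cycle, *GRB10* is an adaptor that dampens insulin and IGF receptor signals, and *DLK1* is a transmembrane protein that keeps precursor cells from maturing. The values here carry no information on the parental copy.

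The genes lie on 4 chromosomes, in coordinates compatible with GRCh38. *PLAGL1* (ENSG00000118495) lies at chr6:143940300-144064599 on the minus strand. *IGF2* (ENSG00000167244, chr11:2129112-2141238), *H19* (ENSG00000130600, chr11:1995171-2001470) and *CDKN1C* (ENSG00000129757, chr11:2883213-2885775) share a stretch of the minus strand of chromosome 11. *DLK1* (ENSG00000185559, chr14:100725705-100738224) and *MEG3* (ENSG00000214548, chr14:100779410-100861031) are neighbors on the plus strand of chromosome 14. *GRB10* (ENSG00000106070, chr7:50590063-50793462, minus strand), *PEG10* (ENSG00000242265, chr7:94656325-94669695, plus strand) and *MEST* (ENSG00000106484, chr7:130486171-130506465, plus strand) lie apart on chromosome 7. No source used here says if strand was used in counting, so that reads of *PEG10* and *SGCE* (248 bases of overlap, opposite strands), of *MEST* and *COPG2* (228 bases) and of *MEST* and its antisense gene *MESTIT1* may not be separated. *HYMAI* overlaps *PLAGL1*, and *INS-IGF2* overlaps *IGF2*, on the same strand.

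Start site sequences from RefSeq (GRCh38.p14) were at hand for 5 of the genes (*PLAGL1*, *GRB10*, *MEST*, *MEG3* and *H19*). Windows of 300 bases around each start site were searched on both strands for 3 short motifs. These were the GC-rich palindrome bound by *PLAGL1* (GGGGCCCC), the AP-1 site bound by *c-JUN* and *FOS* proteins (TGAGTCA) and the cyclic AMP response element (TGACGTCA), which dimers of *c-JUN* and *ATF2* also bind. No motif contains another. Of 35116 such windows, 1.95% held the palindrome, 4.95% the AP-1 site and 1.85% the response element. *PLAGL1* had 5 windows, of which 1 held the palindrome and another held the AP-1 site, and all 3 *MEG3* windows, which overlap each other, held the response element. The windows of *GRB10*, *MEST* and *H19* held none of these letters. The 250 bases before the start are printed for the windows with a match, 5′ to 3′ on the strand of the gene with the match in capitals, because *c-JUN* is the edited gene and *PLAGL1* heads the list. The *PLAGL1* stretch with the palindrome is chr6:144008260-144008509 (minus strand), where the match begins 188 bases before the start. It comes from a CpG-rich window, which held 39 CpG dinucleotides and thus more than 91.3% of all windows:

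PLAGL1, palindrome: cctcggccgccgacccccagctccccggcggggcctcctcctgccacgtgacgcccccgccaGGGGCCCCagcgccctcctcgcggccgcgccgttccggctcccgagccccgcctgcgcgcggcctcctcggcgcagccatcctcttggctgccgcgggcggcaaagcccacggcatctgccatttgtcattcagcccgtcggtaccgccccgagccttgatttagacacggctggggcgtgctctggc

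The *PLAGL1* stretch with the AP-1 site is chr6:143961413-143961662 (minus strand), where the match begins 178 bases before the start and reads as the reverse complement of the letters searched. Its window held 2 CpG dinucleotides:

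PLAGL1, AP-1 site: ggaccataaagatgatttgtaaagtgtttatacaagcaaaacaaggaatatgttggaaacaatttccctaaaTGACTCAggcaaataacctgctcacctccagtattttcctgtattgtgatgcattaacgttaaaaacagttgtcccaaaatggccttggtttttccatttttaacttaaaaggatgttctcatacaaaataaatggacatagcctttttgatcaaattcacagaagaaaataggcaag

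The *MEG3* stretch is chr14:100825858-100826107 (plus strand), where the match begins 50 bases before the start:

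MEG3, response element: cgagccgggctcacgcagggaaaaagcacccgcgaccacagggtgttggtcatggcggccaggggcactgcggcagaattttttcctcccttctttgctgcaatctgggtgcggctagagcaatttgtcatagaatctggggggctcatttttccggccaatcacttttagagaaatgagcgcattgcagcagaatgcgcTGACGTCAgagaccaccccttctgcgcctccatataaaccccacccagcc

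A value per gene does not show which start site was used, and a match is only a description of the letters. Some of the noncoding RNAs also host microRNAs, whose mature forms were not measured here. They are given to show what else is made from these transcripts, with the seed (bases 2 to 8) in capitals. *H19* hosts miR-675 (5p arm, chr11:1996800-1996822) and *MEG3* hosts miR-770 (5p arm, chr14:100852409-100852431), and an intron of *MEST* holds miR-335 (5p arm, chr7:130496126-130496148). The seeds of the 3 differ:

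hsa-miR-675-5p, H19: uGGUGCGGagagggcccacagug

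hsa-miR-770-5p, MEG3: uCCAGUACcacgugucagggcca

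hsa-miR-335-5p, MEST: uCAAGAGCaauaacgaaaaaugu

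The authors deposited whole-number scores, which had the same median of 17 and the same highest value of 5585 in each library. Their scale was thus set by a normalization, and the depth of the libraries is unknown. Differences are given as log2 fold changes of value + 1 from limma, a scale that shrinks the change of low genes. A gene was called at a Benjamini-Hochberg adjusted *p* under 0.05 and a change of at least 2-fold. Values that follow as a pair are those of replicates 1 and 2. *JUN*, the edited gene, was higher and not lower in the libraries labelled KO. On day 24 it was at 13 and 15 in the WT pair and 29 to 39 in the KO libraries (log2 fold change 1.25, adjusted *p* = 0.0184). The study reported that western blot found no c-JUN protein in the KO lines, and RT-qPCR no *c-JUN* mRNA in KO COs. The *JUN* values here differ from that RT-qPCR result, and a value per gene does not show the edit. WT and KO are used here as in the labels. At day 24 the replicates of KO#10 differed most, with r = 0.902 across genes on the log2 scale against 0.944 to 0.953 for the other pairs of replicates. KO#10 replicate 1 had endoderm markers that its partner nearly lacked and a higher sum of mesenchyme markers (2918 against 156), so the KO against WT changes of that day are also given without it. It held the highest *IGF2*, *H19* and *DLK1* of the KO libraries of that day, so leaving it out had to lower their KO level. The fit without it called 722 of 9180 genes higher in KO and 624 lower.

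**Figure D1:**
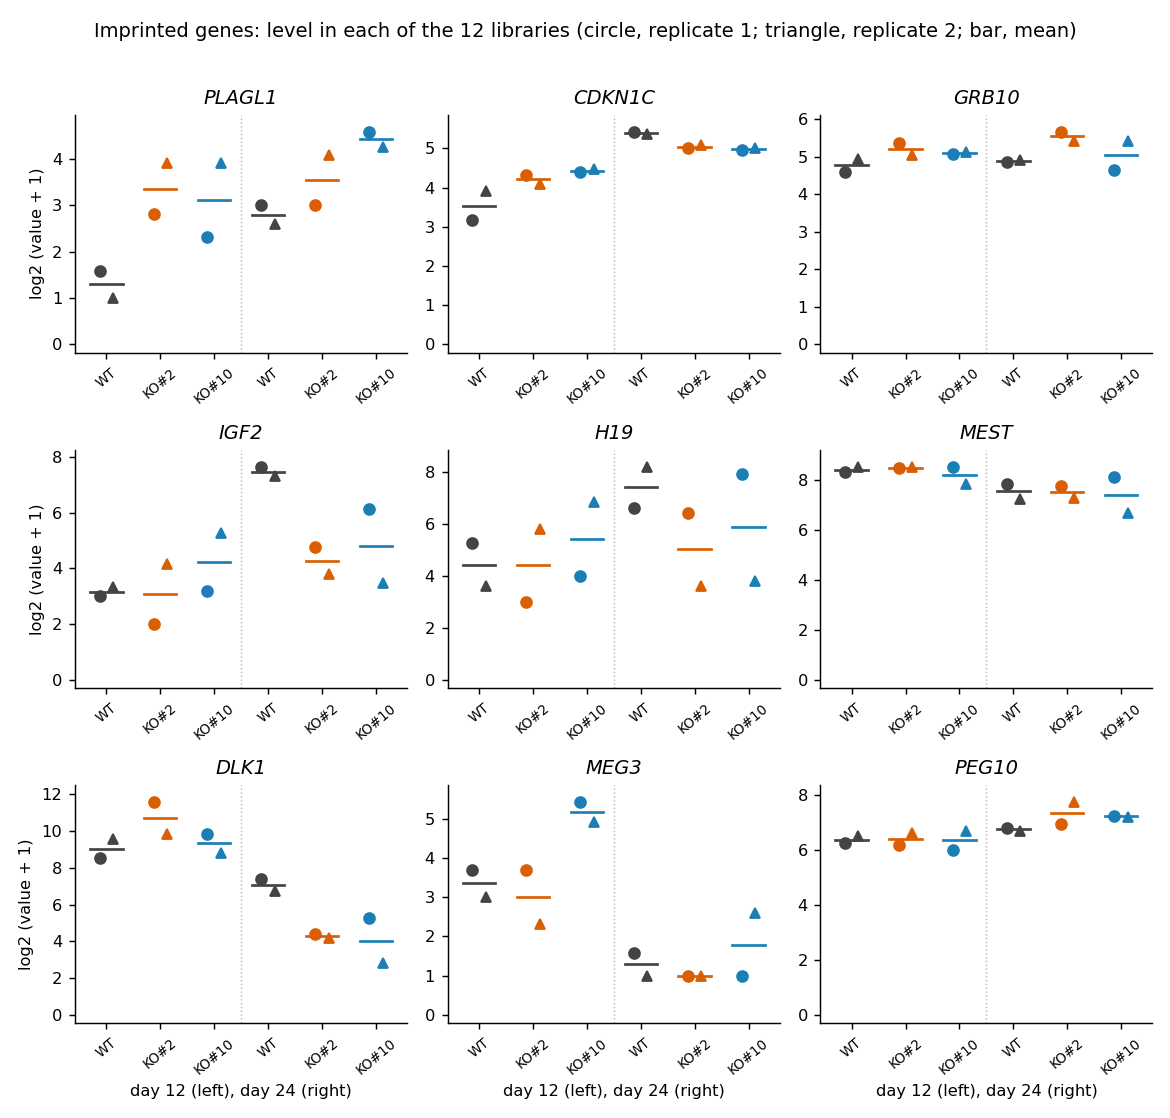
Level of the 9 genes in each of the 12 libraries, as log2 (value + 1), with day 12 left and day 24 right of the dotted line. Circles are replicate 1, triangles replicate 2 and bars the mean of the pair. *IGF2* was at 158 and 200 in WT on day 24 and at 10 to 70 in KO, and *DLK1* was at 104 and 164 in WT and at 6 to 37 in KO.

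On day 12 none of the 9 genes was called between KO and WT (3 of 9 at an unadjusted *p* under 0.05 in limma, as in 11% of all genes tested, with *PLAGL1* alone at least 2-fold), and on day 24 *IGF2* and *DLK1* were lower in KO. Of all 8885 genes tested on day 12, 0.09% were called. With the replicate number as a block, 71 genes in place of 8 were called on that day, and still none of the 9. The adjusted *p*-values from limma with the block were 0.0879 for *PLAGL1*, 0.113 for *CDKN1C* and 0.229 for *GRB10*. For the others they ran from 0.460 (*DLK1*) to 0.996 (*PEG10*). In 3 of the 9 genes (*PLAGL1*, *CDKN1C* and *GRB10*) each KO library lay above both WT libraries, as in 8.23% of all genes tested. At day 24, 2 of the 8 genes tested were called, both lower in KO, where 3.79% of the 9289 genes tested were called lower and 8.01% in either direction. *MEG3* was too low for a test on that day. *IGF2*, *DLK1* and *CDKN1C* lay below both WT libraries in each KO library (21.8% of genes tested), and *PEG10* lay above them (22.2%). The median log2 fold change of the 9 genes was 0.50 on day 12, and that of the 8 genes was −0.23 on day 24, against medians of −0.00 and 0.01 over all genes tested.

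**Figure D2:**
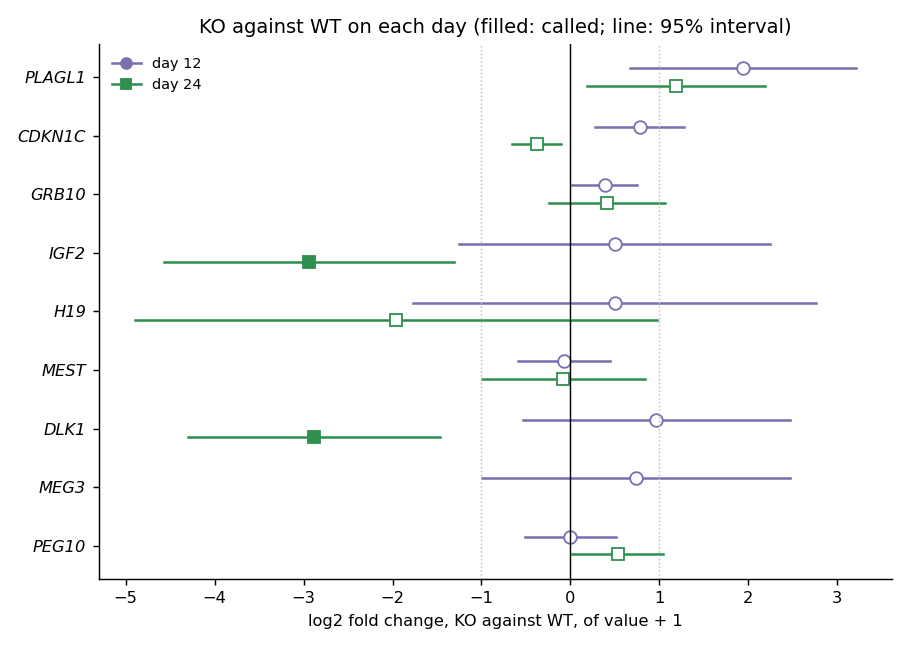
Log2 fold change of value + 1 in KO against WT on day 12 (circles) and day 24 (squares), with 95% intervals from limma. Filled symbols are genes that were called, and dotted lines mark a 2-fold change. The filled symbols are *IGF2* at −2.94 and *DLK1* at −2.89, both on day 24, and *MEG3* has no value on day 24.

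*PLAGL1* was low in WT COs and had its highest values in KO#10 on day 24. On day 12 its value was 2 and 1 in the WT pair, 6 and 14 for KO#2 and 4 and 14 for KO#10. Each KO library was above both WT libraries, and both clones held a low replicate 1 and a higher replicate 2. The log2 fold change was 1.94 (standard error 0.55, 95% interval from 0.67 to 3.21), the 15th highest of the 8885 genes tested, with an unadjusted *p* of 0.00770 in limma and an adjusted *p* of 0.238. The adjusted *p* was 0.0879 with the replicate number as a block. A gene was tested if 2 libraries reached 10, and of these libraries only replicate 2 of each clone did so for *PLAGL1*. It thus passed through the group where it was high, which its rank and *p*-values do not allow for. Over the same libraries, the pluripotent cell markers summed to 718 and 904 in WT and to 415 to 468 in KO. *LIN28A* made up most of the KO sums (302 to 335), where *POU5F1* was at 16 to 19. The neural progenitor markers summed to 474 and 617 in WT and to 699 to 901 in KO, with *SOX2* and *NES* overlapping between the genotypes. The part of these markers in the *PLAGL1* values was not tested.

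On day 24 *PLAGL1* was at 7 and 5 in the WT pair, 7 and 16 for KO#2 and 23 and 18 for KO#10. KO#2 replicate 1 equalled the higher WT library, and the other KO libraries were above it. On this day too *PLAGL1* reached 10 only in KO libraries. The log2 fold change was 1.19 (standard error 0.42, 95% interval from 0.19 to 2.19, adjusted *p* = 0.0907). Leaving out 1 library gave values from 0.98 to 1.51. *PLAGL1* was called only without KO#2 replicate 1 (1.51, adjusted *p* = 0.0423), and without KO#10 replicate 1 it was 0.99 (adjusted *p* = 0.114), just under 2-fold. Between the days the log2 value of *PLAGL1* differed by 1.5 in WT (standard error 0.57, adjusted *p* = 0.0654) and by 0.74 in KO (adjusted *p* = 0.162), and neither was past the threshold. The day change was not shown to differ between the genotypes (interaction −0.76, 95% interval from −2.27 to 0.76, adjusted *p* = 0.575). The 2 relatives of *PLAGL1*, *PLAG1* and *PLAGL2*, were at 9 to 25 in the 12 libraries, and neither was called in any of these comparisons.

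The genes whose log2 values ran most closely with *PLAGL1* over the 12 libraries were *IFT57* (Pearson r = 0.932), *ZNF503* (0.930), *ULK2* (0.915), *INO80B* (0.905) and *BAALC* (0.899), out of 9952 genes. Those that ran most against it were *RESF1* (−0.899), *PRDX1* (−0.868), *TPP2* (−0.868), *NCAPG* (−0.865) and *SUDS3* (−0.862). These are descriptions, since the 12 libraries share lines, days and replicate numbers. *ZNF503*, a zinc finger gene, held 3 and 3 in WT against 4 to 21 in KO on day 12, and 6 and 9 against 9 to 28 on day 24. *RESF1* was at 47 and 34 in WT and 15 to 28 in KO on day 12, and at 22 and 30 in WT and 16 to 22 in KO on day 24. None of the other 8 imprinted genes was among these 10.

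*CDKN1C*, the cell cycle inhibitor, rose with time in WT, and its KO libraries passed from above to below the WT libraries between the days. On day 12 it was at 8 and 14 in the WT pair, 19 and 16 for KO#2 and 20 and 21 for KO#10. On day 24 it was at 42 and 40 in the WT pair, 31 and 33 for KO#2 and 30 and 31 for KO#10. The groups did not overlap on either day, with KO above WT on day 12 (as in 8.23% of genes tested) and below it on day 24 (21.8%). The log2 fold change in KO was 0.78 on day 12 (standard error 0.22, adjusted *p* = 0.233) and −0.38 on day 24 (standard error 0.12, adjusted *p* = 0.0650), so that neither was called. Without KO#10 replicate 1 the latter was −0.36 (adjusted *p* = 0.0562). In WT the rise with time was 1.85 (log2) (standard error 0.21, 95% interval from 1.39 to 2.31, adjusted *p* = 2.97e-04), where 7.17% of the 9952 genes tested were called higher. In KO it was 0.70 (standard error 0.15, adjusted *p* = 0.00369), which was under 2-fold. The difference between the day changes was −1.16 (standard error 0.26, 95% interval from −1.72 to −0.60), with an unadjusted *p* of 7.05e-04 in limma and an adjusted *p* of 0.0505. Without KO#10 replicate 1 of day 24 it was −1.14 and was called (adjusted *p* = 0.0210), as were 419 of 9896 genes higher and 497 lower. No other fit without 1 KO library called *CDKN1C* for this difference.

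*CDKN1A* (p21), an inhibitor of the same Cip/Kip family that is not imprinted, crossed in the same way. It held 19 and 15 in the WT pair of day 12 and 25 to 38 in the KO libraries (log2 difference 0.95, adjusted *p* = 0.143). On day 24 it was at 35 and 54 in the WT pair, 6 and 15 for KO#2 and 17 and 14 for KO#10, and the fitted difference was −1.75 (log2, standard error 0.39, adjusted *p* = 0.0345). *CDKN1A* rose in WT (1.31, adjusted *p* = 0.0236) and fell in KO (−1.39, adjusted *p* = 0.00209), and this difference between the day changes was called (−2.70, adjusted *p* = 0.0257), as in 1.31% of genes tested. *CDKN1B* (p27), the third inhibitor, was at 16 to 33 throughout and was not called. *KCNQ1OT1*, a noncoding RNA made from the imprinted region that holds *CDKN1C*, was at 18 and 10 in the WT pair, 17 and 10 for KO#2 and 16 and 10 for KO#10 on day 12. On day 24 it was at 1 and 1 in the WT pair, 12 and 7 for KO#2 and 5 and 5 for KO#10. Its log2 change between the days was −2.85 in WT, a fall that was called (adjusted *p* = 7.95e-04), and −0.83 in KO, which was under 2-fold. *CDKN1C* and *KCNQ1OT1* thus went opposite ways in WT between the days, and the difference between the day changes of *KCNQ1OT1* was 2.03 (adjusted *p* = 0.0626).

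*GRB10*, the receptor adaptor, stayed between 23 and 50 in all 12 libraries. Day 12 values were 23 and 30 in the WT pair, 40 and 32 for KO#2 and 33 and 34 for KO#10, each KO library above WT (log2 fold change 0.39, standard error 0.16, adjusted *p* = 0.431). Day 24 values were 28 and 29 in the WT pair, 50 and 42 for KO#2 and 24 and 42 for KO#10, and the groups overlapped (0.41, standard error 0.28, adjusted *p* = 0.307). The overlap rested on KO#10 replicate 1, without which the change was 0.63 (adjusted *p* = 0.0201), still under 2-fold. Between the days it moved by 0.11 in WT (95% interval from −0.48 to 0.70) and by 0.14 in KO (95% interval from −0.28 to 0.55) on the log2 scale. *GRB7*, a relative that is not imprinted, was at 10 and 29 in WT on day 24, where KO#2 held 0 and 0 and KO#10 held 1 and 0, and was called lower (adjusted *p* = 0.0411).

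*IGF2* rose in WT COs between the days and was lower in KO COs on day 24. Its day 12 values were 7 and 9 in the WT pair, 3 and 17 for KO#2 and 8 and 38 for KO#10, and the groups overlapped (log2 fold change 0.50, 95% interval from −1.25 to 2.24, adjusted *p* = 0.882). The day 24 values were 200 and 158 in the WT pair, 26 and 13 for KO#2 and 70 and 10 for KO#10. All 4 KO libraries were below both WT libraries. The WT mean was 179 ± 29.7 (SD, n = 2) and the KO mean 29.8 ± 27.7 (SD, n = 4), and the log2 fold change was −2.94 (standard error 0.69, 95% interval from −4.57 to −1.31, adjusted *p* = 0.0377). The call was kept without KO#10 replicate 1, the KO library with the highest *IGF2* (−3.47, adjusted *p* = 0.00500), where 722 of 9180 genes were called higher and 624 lower. It was lost on leaving out any other library of that day, at log2 fold changes from −3.11 to −2.58 and adjusted *p*-values from 0.0780 to 0.267, and with the clones as separate groups (adjusted *p* = 0.0544).

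Over time *IGF2* rose in WT by 4.32 (log2) (standard error 0.92, 95% interval from 2.32 to 6.33, adjusted *p* = 0.00590), the 34th highest of 9952 genes. It was 0.89 in KO (95% interval from −0.53 to 2.30, adjusted *p* = 0.301). The difference between these changes was −3.43 (standard error 1.13, adjusted *p* = 0.117), and without KO#10 replicate 1 of day 24 it was −3.97 and was called (adjusted *p* = 0.0240). No other fit without 1 KO library called it. Without KO#10 replicate 1 of day 24, 419 of 9896 genes were called higher and 497 lower.

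*H19*, the noncoding neighbor of *IGF2*, varied widely between the replicates of a line. It started on day 12 from 37 and 11 in the WT pair, 7 and 55 for KO#2 and 15 and 114 for KO#10. In both clones the replicates lay far apart. *H19* values on day 24 were 97 and 290 in the WT pair, 85 and 11 for KO#2 and 242 and 13 for KO#10, and the groups overlapped. The log2 fold change in KO was 0.50 on day 12 (95% interval from −1.77 to 2.77) and −1.96 on day 24 (95% interval from −4.90 to 0.97, adjusted *p* = 0.281). Without KO#10 replicate 1 it was −2.79 on day 24 (adjusted *p* = 0.0724). The change between the days was 2.98 in WT (adjusted *p* = 0.130) and 0.52 in KO (adjusted *p* = 0.706).

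On day 24 *IGF2*, and less closely *H19*, moved with markers of several other cell types. Of 11 markers of endoderm and yolk sac, 7 had a row, and *SOX17*, *FOXA2*, *GATA4* and *GATA6* were not analysed here. Their values summed to 6938 and 6703 in the WT pair, 83 and 1 for KO#2 and 1167 and 2 for KO#10, against 1 to 19 in any library of day 12. In WT, *AFP* alone was at 5585 in both libraries, the top value of the scale. In the second replicates of both clones, 5 markers (*APOA2*, *APOB*, *SERPINA1*, *RBP4* and *FGB*) were at 0, and *AFP* was at 1 and 0. These replicates held the lowest *IGF2* values (13 and 10) and the lowest *H19* values (11 and 13) of that day. Mesenchyme markers (7 of 9 with a row) summed to 2449 and 2082 in the WT pair, 172 and 139 for KO#2 and 2918 and 156 for KO#10. Surface ectoderm and epithelium markers (7 of 7) summed to 617 and 820 in WT and to 46 to 252 in KO. Choroid plexus markers (5 of 7) summed to 524 and 549 in WT and to 56 to 227 in KO. *TTR* alone made up most of the choroid plexus sum in WT (424 and 471) and was at 22 to 130 in KO. *AQP1* was also lower in each KO library, but *OTX2*, *KCNJ13* and *MSX1* overlapped between the genotypes. Over these 6 libraries the log2 value of *IGF2* ran about as closely with the surface ectoderm sum (Pearson r = 0.978) and the choroid plexus sum (0.935) as with the endoderm sum (0.982), in libraries that share lines and replicate numbers. For *H19* r was 0.816 with the surface ectoderm sum, 0.685 with the choroid plexus sum and 0.914 with the endoderm sum. The part of these cells in the *IGF2*, *H19* and *DLK1* values was not tested, and in bulk RNA fewer cells of a type and less RNA per cell cannot be told apart. The other marker lists differed as well on day 24, with pluripotent cell markers at 388 and 774 in WT and 24 to 43 in KO, and neuron markers (10 of 10) at 346 and 184 in WT and 440 to 2073 in KO.

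**Figure D3:**
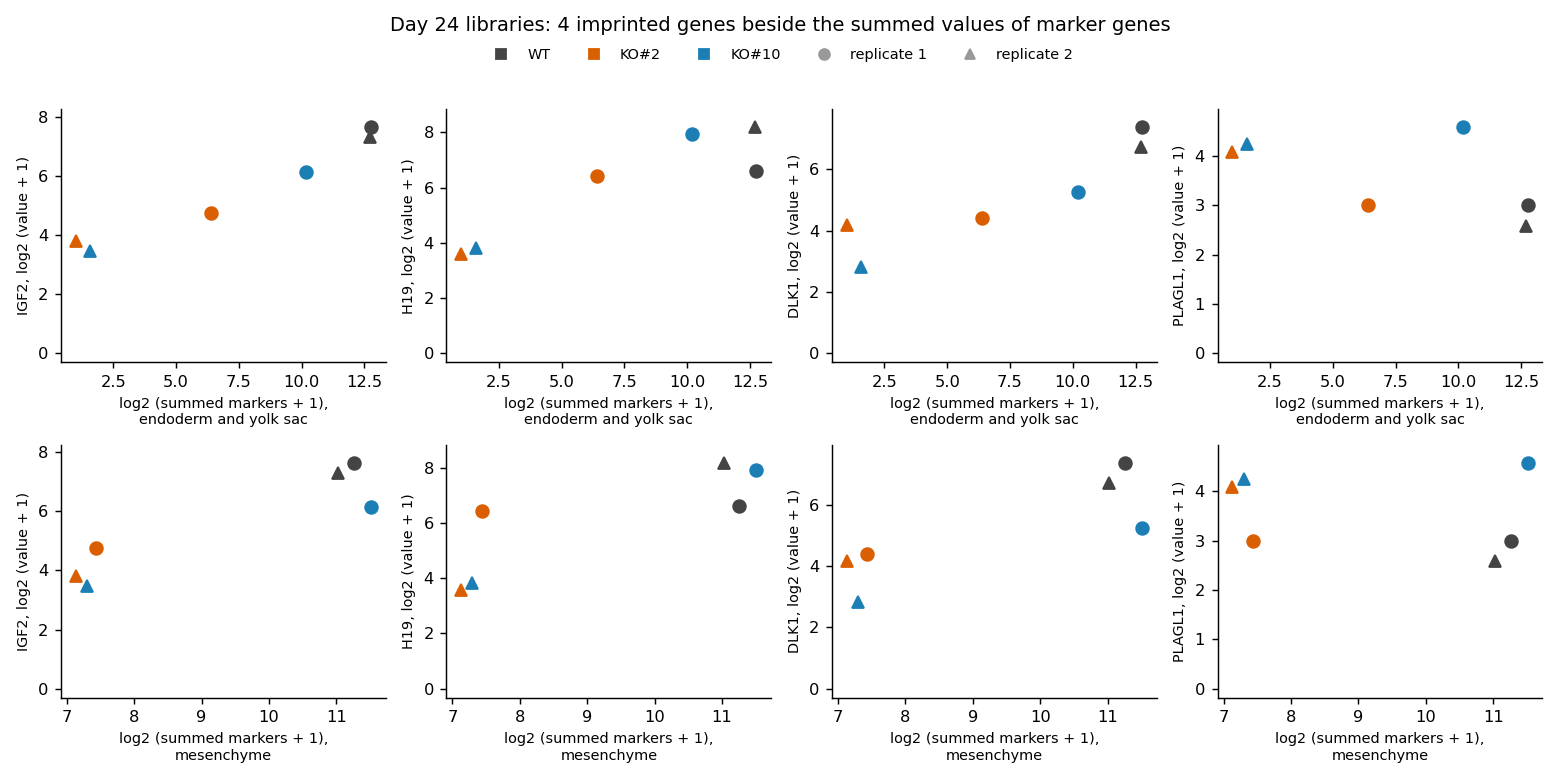
The 6 libraries of day 24, with the log2 value of *IGF2*, *H19*, *DLK1* and *PLAGL1* against the log2 of the summed endoderm and yolk sac markers (top) and mesenchyme markers (bottom). Color shows the line and shape the replicate. KO#10 replicate 1, with an endoderm sum of 1167, held the highest *IGF2* (70), *H19* (242) and *DLK1* (37) of the KO libraries.

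*MEST*, a paternally expressed gene for a predicted hydrolase, did not differ between the genotypes beyond its spread. *MEST* values on day 12 were 316 and 368 in the WT pair, 354 and 368 for KO#2 and 368 and 228 for KO#10. Those of day 24 were 228 and 152 in the WT pair, 218 and 156 for KO#2 and 277 and 102 for KO#10, again with overlap. The log2 fold change in KO was −0.08 on both days, with 95% intervals from −0.59 to 0.44 and from −1.0 to 0.84. Without KO#10 replicate 1 it was −0.30 on day 24 (adjusted *p* = 0.535). The log2 change between the days was −0.87 in both genotypes, with an adjusted *p* of 0.111 in WT and of 0.0265 in KO, where the change was under 2-fold.

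*DLK1*, the precursor cell protein, fell between the days in KO and was lower there than in WT on day 24. Day 12 values were 369 and 749 in the WT pair, 3043 and 902 for KO#2 and 901 and 452 for KO#10. KO#2 replicate 1 was the highest and WT replicate 1 the lowest, and the groups overlapped (log2 fold change 0.97, 95% interval from −0.54 to 2.47, adjusted *p* = 0.660). On day 24 *DLK1* was at 164 and 104 in the WT pair, 20 and 17 for KO#2 and 37 and 6 for KO#10. All 4 KO libraries were below both WT libraries, with a WT mean of 134 ± 42.4 (SD, n = 2) and a KO mean of 20 ± 12.8 (SD, n = 4). The log2 fold change was −2.89 (standard error 0.60, 95% interval from −4.30 to −1.47, adjusted *p* = 0.0301). Without KO#10 replicate 1 it was −3.25 (adjusted *p* = 0.00934), and without any other single library the call was lost, at log2 fold changes from −3.21 to −2.44 and adjusted *p*-values from 0.0663 to 0.245.

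Between the days *DLK1* fell in KO, with a log2 change of −5.85 (standard error 0.57, 95% interval from −7.08 to −4.63, adjusted *p* = 3.07e-05), where 5.59% of genes were called lower. This was the most negative change of the 9952 genes tested in KO. In WT the change was −2.0 (standard error 0.80, 95% interval from −3.74 to −0.26, adjusted *p* = 0.0777), with both libraries of day 24 below both of day 12 (32.1% of genes tested). The difference between the changes was −3.85 (standard error 0.98, 95% interval from −5.98 to −1.73), with an unadjusted *p* of 0.00188 in limma and an adjusted *p* of 0.0669. It was called without KO#10 replicate 1 of day 24 (−4.22, adjusted *p* = 0.0152), and in no other fit without 1 KO library. Without that library, 419 of 9896 genes were called higher and 497 lower, against 130 of 9952 in either direction with all libraries.

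**Figure D4:**
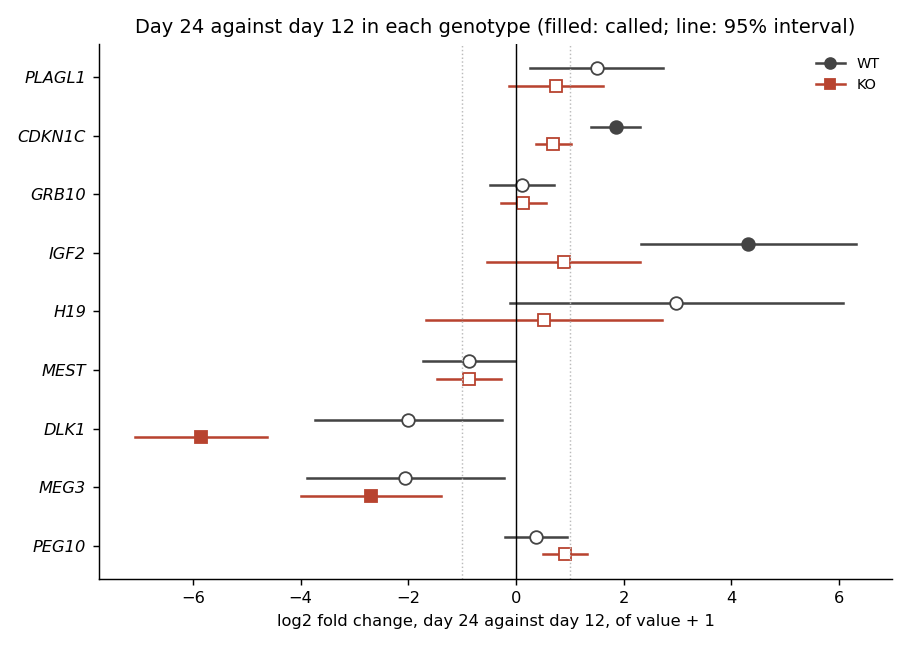
Log2 fold change of value + 1 from day 12 to day 24 in WT (circles) and KO (squares), with 95% intervals from limma. Filled symbols are genes that were called, and dotted lines mark a 2-fold change. *CDKN1C* (1.85) and *IGF2* (4.32) are filled in WT, and *DLK1* (−5.85) and *MEG3* (−2.69) in KO.

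*MEG3*, a maternally expressed noncoding RNA from the same imprinted region as *DLK1*, was seen mainly on day 12 and mainly in KO#10. *MEG3* values on day 12 were 12 and 7 in the WT pair, 12 and 4 for KO#2 and 42 and 29 for KO#10. By day 24 they were 2 and 1 in the WT pair, 1 and 1 for KO#2 and 1 and 5 for KO#10. *MEG3* thus reached 10 only on day 12 and entered the fit of the day changes through that day. It fell between the days in KO (log2 change −2.69, standard error 0.60, 95% interval from −3.99 to −1.40, adjusted *p* = 0.00435), and the change was −2.06 in WT (standard error 0.84, adjusted *p* = 0.0841). The changes were not shown to differ (−0.63, 95% interval from −2.88 to 1.61, adjusted *p* = 0.769). In KO#2 against KO#10 on day 12, *MEG3* was lower in KO#2 by −2.16 (standard error 0.47, unadjusted *p* = 0.00291 in limma, adjusted *p* = 1), the most negative difference of the 8885 genes tested. *DLK1* had the most positive one, at 1.37 (95% interval from −0.15 to 2.90, adjusted *p* = 1). No gene was called between the clones by limma on either day, and at an unadjusted *p* under 0.05 with at least 2-fold there were 7 genes on day 12 and 79 on day 24. *MEG3* was the gene of the 9 among those of day 12. *DLK1* lay higher in both KO#2 libraries than in both KO#10 libraries (8.42% of genes tested), and *MEG3* and *CDKN1C* lay lower (9.12%). On day 24 *PLAGL1* was lower in both KO#2 libraries than in both of KO#10 (14.7%), by −0.87 on the log2 scale (95% interval from −1.84 to 0.10, adjusted *p* = 0.825).

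Further genes of that region of chromosome 14 were *MEG8* and *DIO3*. *MEG8*, a noncoding RNA, was at 5 and 3 in the WT pair, 12 and 2 for KO#2 and 16 and 11 for KO#10 on day 12, and at 0 to 2 in the 6 libraries of day 24. It fell in KO, with a log2 change of −2.74 (adjusted *p* = 0.00246 in limma). *MEG8* reached 10 only in KO libraries of day 12 and passed the filter through them, which this *p*-value does not allow for. *DIO3*, which inactivates thyroid hormone, was at 6 and 11 in the WT pair, 12 and 7 for KO#2 and 12 and 5 for KO#10 on day 12. On day 24 it was at 23 and 25 in the WT pair, 6 and 2 for KO#2 and 3 and 0 for KO#10, so that *DIO3* was lower in KO by a fitted −3.04 (log2, standard error 0.73, adjusted *p* = 0.0386). *DIO3* and *DLK1*, both paternally expressed, were thus lower in KO on day 24. In WT the mean of *DIO3* was 8.5 on day 12 and 24 on day 24 (log2 change 1.45, adjusted *p* = 0.131).

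**Figure D5:**
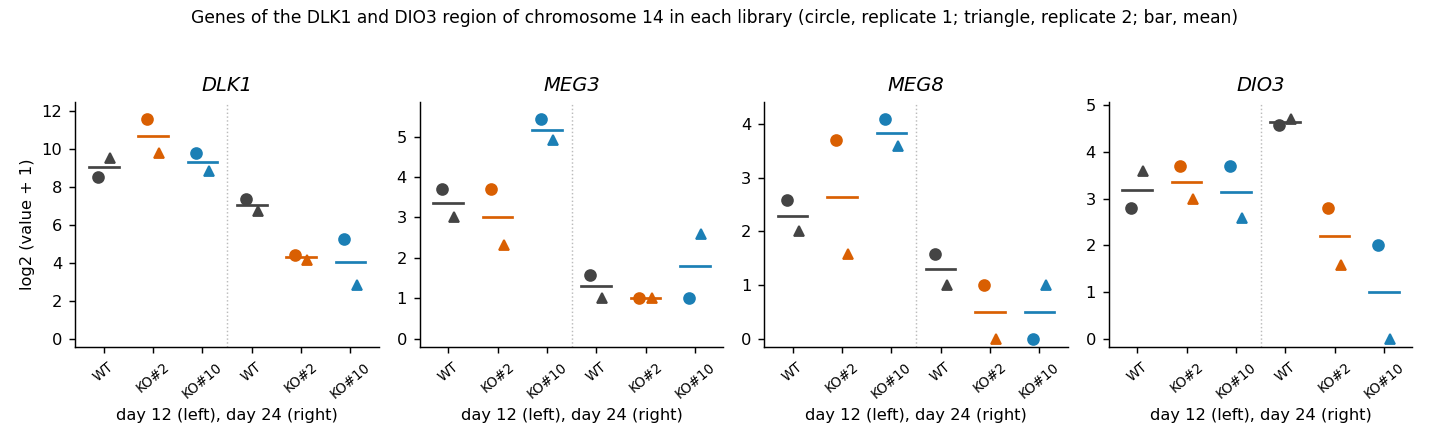
*DLK1*, *MEG3*, *MEG8* and *DIO3* in each library, as log2 (value + 1), with day 12 left and day 24 right of the dotted line. Circles are replicate 1, triangles replicate 2 and bars the mean of the pair. *MEG3* was at 29 and 42 in KO#10 on day 12 and at 4 to 12 in the other lines, and *DIO3* was at 23 and 25 in WT on day 24 and at 0 to 6 in KO.

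*PEG10*, a paternally expressed gene derived from a retrotransposon, overlapped between the genotypes on day 12 and not on day 24. The values of day 12 were 75 and 89 in the WT pair, 71 and 96 for KO#2 and 63 and 103 for KO#10, or −0.00 as a log2 fold change (95% interval from −0.51 to 0.51). The values of day 24 were 111 and 102 in the WT pair, 122 and 212 for KO#2 and 149 and 146 for KO#10. Each KO library was above both WT libraries, and the fitted difference was 0.53 on the log2 scale (standard error 0.22, adjusted *p* = 0.123), or 0.55 without KO#10 replicate 1 (adjusted *p* = 0.133). Between the days it rose in KO by 0.91 (standard error 0.19, adjusted *p* = 0.00306), under 2-fold, and the change was 0.38 in WT (adjusted *p* = 0.302). Of 7 other genes derived from the gag gene of retrotransposons that had a row, 3 were called higher in KO on day 24 and 0 lower. These were *RTL5* (1 and 2 in WT, 5 to 12 in KO), *RTL6* (8 and 14 in WT, 19 to 34 in KO, with a change of 1.37, adjusted *p* = 0.0330) and *PNMA1* (21 and 27 in WT, 42 to 70 in KO, 1.23, adjusted *p* = 0.0233). *RTL5* reached 10 only in KO libraries on that day and passed the filter through them. Of these 7, *LDOC1* rose and *RTL6* fell in WT between the days, and *RTL8A*, *RTL8B* and *RTL8C* were not called. The median KO against WT change of the 7 on day 24 was 0.81, against 0.01 over all genes tested, where 4.22% were called higher. Of the 7 changes, 5 were positive and 2 negative. *LDOC1* lay lower in each KO library (8 to 15) than in both WT libraries (18 and 28), as did 21.8% of genes tested.

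Over the day changes, 2 of the 9 genes were called in WT, both higher (*IGF2* and *CDKN1C*), and 15.1% of all genes in either direction. In KO 2 were called, both lower (*DLK1* and *MEG3*), and 11.5% of all genes. *DLK1*, *MEG3* and *MEST* lay lower on day 24 in both WT libraries, and *PLAGL1*, *IGF2*, *H19*, *CDKN1C* and *PEG10* lay higher (32.8%). In KO, *CDKN1C* and *PEG10* lay higher in all 4 libraries of day 24 than in all 4 of day 12 (16.5%) and *DLK1* lay lower (15.9%). None of the 9 was called for the difference between the day changes (limma, 3 of 9 at an unadjusted *p* under 0.05, namely *IGF2*, *CDKN1C* and *DLK1*, against 21.5% of all genes tested).

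The wider list of other imprinted genes held 40 symbols, of which 21 had a row. On day 12, 18 of them were tested and 0 were called by limma, with 4 at an unadjusted *p* under 0.05, against 11% of all genes (median log2 fold change 0.06). On day 24, 13 were tested and only *DIO3* was called, lower in KO (median 0.22). Between the days, 6 of 18 were called lower in WT, where 7.88% of all genes were, and 0 higher. These were *KCNQ1OT1*, *SNHG14* (−2.07), *PPP1R9A* (−1.90), *SNURF* (−1.73), *L3MBTL1* (−1.55) and *ZNF331* (−1.17). In KO 6 were lower (*DIO3*, *SNHG14*, *L3MBTL1*, *SNURF*, *MEG8* and *ZNF331*) and 2 higher (*NNAT* and *NDN*), against 5.88% of all genes called higher. *SNHG14*, the noncoding RNA of the Prader-Willi region, was at 369 and 266 in WT on day 12 and at 67 and 81 on day 24. *NNAT*, a membrane protein gene of neurons, was at 67 to 98 in KO on day 12 and at 93 to 220 on day 24, a log2 change of 1.1 (adjusted *p* = 0.00641). *NDN*, a growth suppressor of neurons, held 27 to 34 in KO on day 12 and 50 to 72 on day 24, a change of 1.07 (adjusted *p* = 6.10e-04). The uncalled genes with the highest means were *GNAS*, *SNRPN*, *UBE3A* and *COPG2*. *GNAS* was at 356 and 370 in WT and at 472 to 507 in KO on day 24, a change of 0.46 under 2-fold (adjusted *p* = 0.0365).

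Of the genes of IGF and insulin signalling, 25 of 31 had a row. On day 24, 21 were tested and only *GRB7* was called between KO and WT (median log2 fold change 0.17), and on day 12, 0 of 20 were called by limma, with 6 at an unadjusted *p* under 0.05, against 11% of all genes (median 0.08). The receptors of *IGF2* were not called between the genotypes. *IGF2R*, which clears the ligand, was at 12 and 13 in WT and 12 to 14 in KO on day 24. *IGF1R*, which signals, fell in WT between the days (log2 change −1.01, adjusted *p* = 0.00993), from 43 and 43 to 19 and 23. Among the binding proteins, *IGFBP6*, which prefers *IGF2*, was at 0 in both WT libraries on day 12 and at 20 and 21 on day 24, where it was at 3, 0, 7 and 1 in KO. Of 23 genes tested between the days, 2 rose in WT (*IGFBP6* and *IGFBP7*) and 5 fell (*IGFBP5*, *IRS4*, *IGF1R*, *IGF2BP1* and *AKT2*), against 7.17% and 7.88% of all genes. In KO 1 rose (*IGFBP7*) and 5 fell (*GRB7*, *IRS4*, *IGFBP5*, *IGFBP3* and *STC2*), against 5.88% and 5.59%. *IGFBP2*, *IGF2BP2*, *IGF2BP3* and *AKT1*, the uncalled genes of this list with the highest means, kept within 2-fold in all these fits. Of 5 factors that maintain imprints, 0 were called by limma between KO and WT on either day, with 0 at an unadjusted *p* under 0.05 on day 12 and 3 on day 24, where 37.8% of all genes were. *DNMT1*, the maintenance methyltransferase, fell in WT between the days (79 and 70 to 33 and 35, log2 change −1.11, adjusted *p* = 4.05e-04), and so did *ZNF445* (−1.23, adjusted *p* = 0.00128), a zinc finger protein of imprint control. *TRIM28*, *UHRF1* and *CTCF* were not called.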

How the data were processed

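Cerebral organoid RNA was depleted of ribosomal RNA and sequenced with a strand-specific kit. Per the submitters' processing notes, bcl2fastq, Bowtie2 and RSEM were used with the build mm10, but all 10976 identifiers are those of GENCODE 29 (GRCh38). The authors deposited 1 whole-number score per gene and library, whose equal median and maximum in all libraries show a normalization that is not given in the sources used here. The column totals (473637 to 483149) reflect it and are not depths, so no counting interval is given.

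Groups and replicate numbers come from the labels. Values were transformed as log2 (value + 1), the pseudocount being 1, and genes reaching 10 in 2 or more libraries of a fit entered limma 3.58.1 (R 4.3.3, lmFit, then eBayes with its trend option), with Benjamini-Hochberg adjustment over all genes tested. KO and WT were compared 1 day at a time. Some genes reached 10 only in the group where they were high, and their ranks and *p*-values do not allow for that. Among them were *PLAGL1* in KO on both days, and on day 24 *RTL5* in KO and *DIO3* and *GRB7* in WT. In the fit of the day changes, *MEG3* and *SNURF* reached 10 only on day 12, and *MEG8* only in KO on that day. *IGFBP7* reached 10 only on day 24, and *IGFBP6* only in WT on that day. Day changes and their interaction used all 12 libraries, and the clones were compared within a day beside WT. The methods state that experiments were done in several separate batches, but no source used here ties a library to a batch, so *p*-values measure the spread between these libraries. Where 2 libraries met 4, no exact test of 1 gene could have passed the threshold.

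The genes, lists and comparisons were chosen with earlier results of these data known. All listed genes with a row are named. Of the related lists, the genes called and the 4 uncalled genes with the highest means are named, and for *PLAGL1* the 5 genes with the highest and the 5 with the lowest r. Same-numbered libraries deviated together from their line's mean on day 12 (r across genes from 0.376 to 0.556), so the numbers were taken to pair them on that day. The main fits held no block, so that their *p*-values of day 12 do not allow for this pairing. The labels do not say what a number stands for. On day 24 r was from −0.09 to 0.33. A run on simulated data used noise that was independent between libraries, and changed no low genes such as *PLAGL1* and *MEG3*. It thus does not cover libraries that deviate together or genes at such low levels. Tables and plots were made with Python 3.11.15, pandas 2.3.3 and matplotlib 3.10.9.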

Additional observations from a re-analysis of the deposited data

Results flagged for a closer look

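The *CDKN1C* values lay opposite ways on the 2 days, since each KO library was above both WT libraries on day 12 and below both on day 24. Of all genes tested, 8.23% lay above in this way on day 12 and 21.8% below on day 24. *CDKN1C* was called on neither day. The difference between the KO against WT changes was −1.16 on the log2 scale (limma, adjusted *p* = 0.0505) and was not called. Of 18 sets of 4 KO libraries examined (9 genes, 2 days), 2 held a library far from the other 3 by Dixon's criterion, which chance meets in about 1 set in 20. *MEG3* was at 5 in KO#10 replicate 2 on day 24 and at 1 in the other KO libraries. Equal values make this gap the whole range whatever its size, and the rate of 1 in 20 does not hold for such ties. The *MEST* set held equal values too. *MEST* was at 228 in KO#10 replicate 2 on day 12 and at 354 to 368 in the other KO libraries.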

How the results depend on the processing

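For the 9 genes, 972 alternative values of 61 results were computed. None of the called changes turned direction, 11 called values lost their call and 27 gained one, and 934 kept their side of the threshold. Between KO and WT on day 12, the 8 genes called over all genes became 145 with an unadjusted *p*, 16 with no trend, 1 with the clones as separate groups and 1 to 4 without 1 library, and 1 of the 9 imprinted genes (*PLAGL1*) passed with an unadjusted *p*. On day 24 the 744 genes became 476 when 2 libraries had to reach 20, 1117 with all 12 libraries in 1 fit, and 2 to 1346 without 1 library. The 2 imprinted genes became 1 (*DLK1*) with the clones as separate groups, where 358 of 9289 genes were called higher and 344 lower. They became 0 to 2 without 1 KO library. For the day change in WT, the 1498 genes became 809 to 1573 without 1 library, and the 2 imprinted genes became 5 with an unadjusted *p*. With that *p*, 825 of all 9952 genes were called higher in WT and 829 lower. In KO the 2 became 2 to 4 without 1 library. The 4 were reached without KO#2 replicate 1 of day 24 (562 of 9896 genes higher, 616 lower). They were also reached without KO#10 replicate 2 of day 12 (610 of 9924 higher, 599 lower). For the interaction, the 130 genes became 83 with the stricter filter, 964 with an unadjusted *p* and 11 to 916 without 1 library, and the 0 imprinted genes became 3 with an unadjusted *p* and 0 to 3 without 1 library. Between the clones, an unadjusted *p* gave 7 genes (1 of them *MEG3*) on day 12 and 79 on day 24, and leaving out 1 library gave 0 to 2 on day 24. The cause of these shifts was not tested, beyond the fewer libraries or genes in a fit. With the replicate number as a block, the count was 71 on day 12. The numbers were not taken to pair the other libraries, where the block gave 315 genes for the interaction, among them *CDKN1C* (adjusted *p* = 0.0381) and *DLK1* (adjusted *p* = 0.0393), and 3 imprinted genes for the day change in WT, with *DLK1* added (adjusted *p* = 0.0485). For the day change in WT the block called 756 of 9952 genes higher and 804 lower. The block gave 2 imprinted genes for the interaction and changed no other call of the 9. DESeq2 was not run, because the values are not counts. Leaving out 1 of 2 WT libraries assumes that the other varies like the KO libraries. With the depth unknown, low values such as those of *PLAGL1* and *MEG3* are the least certain.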
